A study of Homo sapiens with 24 samples.

Results

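The genes described here encode 10 surface proteins with which a B cell engages T cells: CD80, CD86, ICOSLG, CD274 and PDCD1LG2 of the B7 family, CD40 and CD70 of the TNF receptor and TNF families, and CD58, CD48 and SLAMF1 of the CD2 and SLAM group. All probes that carried one of these gene names on the array were taken, which gave 16 of 41000 probes and 10 of 30142 named genes. FOXP1, a forkhead transcription factor, was silenced for 48 h by electroporation of 1 µM siRNA into 4 lines of diffuse large B-cell lymphoma (DLBCL). DB and K422 are germinal centre B-cell type (GCB-DLBCL), and HBL-1 and OCI-Ly3 are activated B-cell type (ABC-DLBCL). Each line received either of 2 Stealth duplexes, siFOXP1 #1 or siFOXP1 #2, or a low GC negative control duplex (siCtrl), in 3 replicates. On each of 24 Agilent arrays the Cy3-labelled RNA of FOXP1-silenced cells was hybridised with the Cy5-labelled RNA of siCtrl cells of the same line, so each line has 6 arrays, and each group is a single established line with no primary tumour among the samples.

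T cells need a second signal besides antigen, and the proteins above deliver or withhold it. CD80 and CD86 engage the activating receptor CD28 and the inhibitory receptor CTLA4, ICOSLG engages ICOS, and CD274 (PD-L1) and PDCD1LG2 (PD-L2) engage the inhibitory receptor PD-1. CD40 receives CD40 ligand from helper T cells, CD70 binds CD27, CD58 binds the T cell adhesion receptor CD2, CD48 binds CD244, and SLAMF1 binds itself on the neighbouring cell. Germinal centre B cells depend on such contacts with follicular helper T cells, and lymphomas of B cells often lose CD58 or gain the PD-1 ligands.

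The results below turn on what single 60-base probes detected, so the sequences of probes are shown for the genes whose reading depended on the probe or whose probe crossed an intron. Coordinates are hg18, as on the array. The probe of PDCD1LG2 (chr9:5539556-5547628, plus strand) spanned 8073 bases and that of CD58 (chr1:116866089-116880129, minus strand) 14041 bases of the genome, so both joined separate exons and matched spliced RNA. CD48 probe 2 (chr1:158921306-158921365) and ICOSLG probe 3 (chr21:44479723-44479782), both on the minus strand, were dimmer than the probes that stood for their genes, and CD86 probe 2 (chr3:123310864-123310923, plus strand) is the counterpart of the probe shown last. In that last line only the first 30 bases of CD86 probe 1 (chr3:123321936-123321995) are given, and the capitals mark its run of 23 bases made only of A and G, the longest such run among the 16 probes.
CD48 probe 2: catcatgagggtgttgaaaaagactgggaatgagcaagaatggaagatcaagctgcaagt
ICOSLG probe 3: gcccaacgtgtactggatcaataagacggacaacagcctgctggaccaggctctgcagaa
PDCD1LG2 probe 1: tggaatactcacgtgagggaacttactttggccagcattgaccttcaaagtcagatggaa
CD58 probe 1: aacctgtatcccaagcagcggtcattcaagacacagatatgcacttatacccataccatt
CD86 probe 2: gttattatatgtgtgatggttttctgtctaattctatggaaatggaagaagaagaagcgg
CD86 probe 1, start: GAGAGAGAGAGAAAAAAGAGAGAtcttgat

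FOXP1 itself was lower on all 24 arrays. The log2 ratio of FOXP1-silenced over siCtrl cells for FOXP1 was lowest, median and highest at -2.71, -2.15 and -0.95 in DB, at -1.80, -1.33 and -0.83 in K422, at -2.50, -1.75 and -1.09 in HBL-1, and at -2.51, -1.95 and -1.39 in OCI-Ly3. siFOXP1 #2 lowered FOXP1 further than siFOXP1 #1 in each line, by 1.40 more on the log2 scale in DB (adjusted p = 0.000316), 0.85 in K422 (adjusted p = 0.0246), 0.90 in HBL-1 (adjusted p = 0.0146) and 0.97 in OCI-Ly3 (adjusted p = 0.00697). The share of probes well above background in at least 1 channel ranged from 57.8% to 65.2% per array. The B cell markers MS4A1, CD79A, CD79B, PAX5 and CD22 were well above background in siCtrl cells on all 6 arrays of each line. Of 8 T cell markers, 1 was well above background on all 6 arrays in DB, 5 in K422 (CD3D, CD3E, CD3G, CD7 and LCK), 2 in OCI-Ly3 and 4 in HBL-1. Their summed siCtrl level ranged from 3.91 to 4.11 in K422 and from -2.06 to -1.78 in OCI-Ly3 (log2 of the sum, relative to the array's 75th percentile).

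The first comparison was of the ligand genes between the unsilenced lines. Levels are log2 Cy5 signals of siCtrl cells relative to the 75th percentile of the array, averaged over the arrays of a replicate number (n = 3 per line), and a level difference was called at an adjusted p under 0.05 and a fold of 2 or more. Between the ABC-DLBCL and GCB-DLBCL lines 9 of 10 ligand genes were called different, against 21.3% of all genes. CD80, CD40, CD70, CD48, ICOSLG, CD274 and PDCD1LG2 were higher in ABC-DLBCL, CD58 and CD86 were lower, and SLAMF1 did not pass the fold (difference 0.28, SE 0.13, adjusted p = 0.103). A subtype here is a pair of lines, and several of these calls came from 1 line. CD80 was lower in HBL-1 (-4.67) than in DB (-4.29). So was PDCD1LG2 (-7.32 against -7.04), at background in both. On the CD86 probe used, DB (-1.52) was below both ABC-DLBCL lines, and only K422 (3.13) was above them. ICOSLG was lower in OCI-Ly3 (-2.05) than in K422 (-1.54). Between single lines of different subtype, 8 of 10 were called for HBL-1 against K422 and 9 of 10 for OCI-Ly3 against DB (25.8% of all genes in each). Members differed within a subtype too, 7 of 10 between HBL-1 and OCI-Ly3 (25.9%) and 6 of 10 between K422 and DB (28.3%). DB and OCI-Ly3 were in scan 1, and K422 and HBL-1 in scan 2. Only HBL-1 against K422 and OCI-Ly3 against DB are therefore level differences within a scan. For every other pair of lines, here and below, line and scan cannot be told apart in the level.

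CD274, the main ligand of PD-1, was higher in both ABC-DLBCL lines. Its siCtrl levels in the 3 replicates were -0.11, -0.23 and -0.34 in OCI-Ly3 and -1.12, -1.90 and -1.78 in HBL-1. In DB they were -7.10, -7.23 and -6.97, not well above background on any array, and in K422 -5.42, -7.06 and -5.94, well above background on 1 of 6 arrays. Every ABC-DLBCL replicate thus stood above every GCB-DLBCL replicate, and CD274 was at least 10.2-fold higher in HBL-1 and at least 26.4-fold higher in OCI-Ly3 than in DB. PDCD1LG2, the other PD-1 ligand, was well above background in siCtrl cells only in OCI-Ly3, on 3 of 6 arrays, at levels of -4.42, -5.16 and -4.67, and on none of the 18 arrays of the other lines.

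CD58 had the opposite order. It was measured in DB at -1.34, -1.94 and -1.87 and in K422 at -2.55, -2.81 and -2.50, well above background in siCtrl cells on all 6 arrays of each. In HBL-1 its levels of -7.75, -7.89 and -7.79 were not well above background on any array, and in OCI-Ly3 it was well above background on 1 of 6. CD58 was at least 13.8-fold higher in DB and at least 7.41-fold higher in K422 than in HBL-1.

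CD48, a widely expressed lymphocyte surface protein, was far above the 75th percentile of the array in 3 lines and far below it in the fourth. Its levels were 5.36, 5.06 and 5.11 in DB, 4.30, 3.95 and 4.14 in OCI-Ly3 and 3.52, 3.34 and 3.01 in HBL-1. In K422 they were -3.38, -4.86 and -4.15. The difference between K422 and DB was -9.31 (SE 0.30, adjusted p = 9.9e-10), the largest fitted level difference of any member between any pair of lines, and CD48 probe 2 placed K422 lowest as well. The subtype difference of CD48 in level (3.19, SE 0.21, adjusted p = 2.39e-07) therefore came from K422, since DB was above both ABC-DLBCL lines.

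CD40, the receptor for T cell help, was highest in OCI-Ly3 (4.09 ± 0.10, SD, n = 3), followed by HBL-1 (1.76 ± 0.05), DB (1.45 ± 0.22) and K422 (-1.74 ± 0.53). HBL-1 and DB did not differ beyond the test (0.31, SE 0.23, adjusted p = 0.267). CD70 was above the 75th percentile in all lines, at 4.76 ± 0.22 in HBL-1, 4.28 ± 0.18 in OCI-Ly3, 3.70 ± 0.52 in K422 and 2.01 ± 0.58 in DB. HBL-1 and OCI-Ly3 did not differ beyond the test for CD70 (adjusted p = 0.208), nor did OCI-Ly3 and K422 (adjusted p = 0.137), while each was above DB.

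CD80 was highest in OCI-Ly3 (-0.89 ± 0.11), lower in DB (-4.29 ± 0.03) and HBL-1 (-4.67 ± 0.56), which overlapped on this probe but stood apart on CD80 probe 2 (-3.51 and -5.73), and not well above background on any K422 array. It was at least 23.8-fold higher in OCI-Ly3 and at least 2.25-fold higher in DB than in K422. ICOSLG was highest in HBL-1 (-0.86 ± 0.42), then K422 (-1.54 ± 0.74) and OCI-Ly3 (-2.05 ± 0.24), with overlapping replicates between neighbours, and lowest in DB (-4.47 ± 0.37). On ICOSLG probe 2 the order of the lines was the same, but OCI-Ly3 (-3.43) and DB (-3.58) overlapped and the other neighbours did not, and the subtype difference in level was not called (0.29, adjusted p = 0.0762). SLAMF1 was below the 75th percentile in every line, from -3.05 ± 0.11 in HBL-1 through -4.17 ± 0.35 in DB and -4.71 ± 0.19 in K422 to -5.27 ± 0.13 in OCI-Ly3, where it was well above background in siCtrl cells on 2 of 6 arrays.

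CD86 could not be ordered, because its probes disagreed. Probe 1 placed K422 far above the other lines, at 1.66, 3.94 and 3.79 against means of -0.51 in OCI-Ly3, -1.08 in HBL-1 and -1.52 in DB. Probe 2 placed DB (-0.67 ± 0.12) and OCI-Ly3 (-0.86 ± 0.12) together at the top, K422 below them (-1.26 ± 0.20) and HBL-1 lowest (-4.32 ± 0.31). Both probes were well above background on all 24 arrays in both channels.

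**Figure D1:**
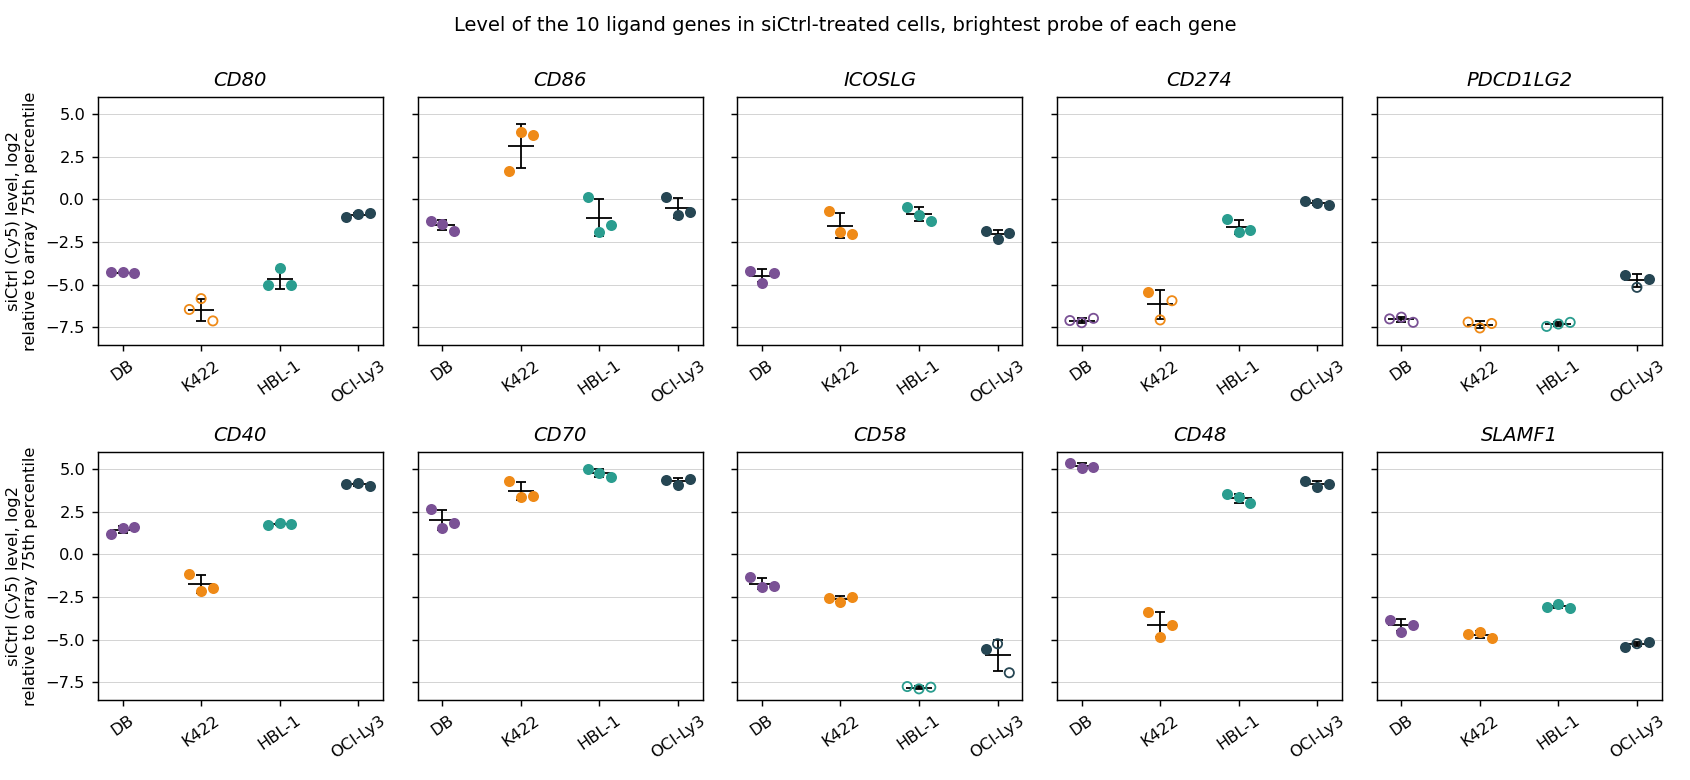
Level of each ligand gene in siCtrl cells (log2 Cy5 signal relative to the array's 75th percentile, vertical axis) in the 4 lines (horizontal axis). Points are the 3 replicates of a line, each the mean of 2 arrays, with open points where neither array was well above background, and bars give mean and SD. CD274 lies at the bottom in DB and K422, PDCD1LG2 in DB, K422 and HBL-1, CD58 in HBL-1, and CD48 falls from above 3 in the other lines to -4.13 in K422.

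The second comparison was the response to FOXP1 silencing. A response was called at an adjusted p under 0.05 in limma and a log2 ratio of at least 0.5 either way (1.41-fold), with p-values adjusted over all genes. Of 40 values, 10 genes in 4 lines, 4 were called, and each line had exactly 1 called member, a different gene in each. SLAMF1 was lower in DB (0.829% of all genes were called lower there), CD48 was lower in K422 (2.10% called lower), ICOSLG was higher in HBL-1 (5.73% called higher) and PDCD1LG2 was higher in OCI-Ly3 (2.80% called higher). In either direction HBL-1 had 9.90% of all genes called, K422 4.44%, OCI-Ly3 4.42% and DB 2.16%, so 1 of 10 members was close to the background share in HBL-1. The median log2 ratio over the 10 members was -0.33 in K422, -0.17 in DB, 0.04 in OCI-Ly3 and 0.07 in HBL-1, beside 0.00 over all genes in each line.

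ICOSLG gave the largest response. In HBL-1 its log2 ratios were 0.95, 1.00 and 1.30 with siFOXP1 #1 and 1.65, 1.50 and 1.92 with siFOXP1 #2. All 6 values were above 0, the values of siFOXP1 #2 all exceeded those of siFOXP1 #1, and both channels were well above background on every array. The mean was 1.39 (SE 0.12, 2.61-fold, adjusted p = 1.14e-07). The difference between the siRNAs, 0.61 (SE 0.23), did not pass (adjusted p = 0.624). In the other lines the ICOSLG means were 0.04 in DB, -0.28 in K422 and 0.06 in OCI-Ly3, and in OCI-Ly3 siFOXP1 #1 gave -0.39, -0.22 and -0.30 where siFOXP1 #2 gave 0.61, 0.55 and 0.10.

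The size of the ICOSLG response in HBL-1 depended on the probe. Probe 1, the brightest, lies 5041 bases from probe 2 towards the 3′ side of the gene (chr21:44467368-44467427 against chr21:44472409-44472468, minus strand), and the array annotated it to an Ensembl transcript where probes 2 and 3 carried the RefSeq one. Probe 2 gave 0.49, 0.18 and 0.23 with siFOXP1 #1 and 0.34, 0.32 and 0.53 with siFOXP1 #2, a mean of 0.35 (SE 0.13, adjusted p = 0.0583 over all probes, of which 9.88% were called in HBL-1). Both probes were higher on all 6 arrays, but probe 1 exceeded probe 2 on 6 of 6 arrays, by 1.04 ± 0.35 (SD). Probe 3, the sequence of which is given above, was also higher on all 6 arrays, from 0.26 to 2.91, yet none of these had a siCtrl signal well above background. With probe 2 in place of probe 1, ICOSLG was not called.

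CD48 gave the next largest response, in the line where it was scarcest. Its log2 ratios in K422 were -1.12, -0.89 and -1.24 with siFOXP1 #1 and -1.69, -1.27 and -1.23 with siFOXP1 #2. All 6 were below 0 and no array reached the range of another line, where the lowest single value was -0.78. The mean was -1.24 (SE 0.09, a ratio of 0.423, adjusted p = 4.73e-08). The siCtrl signal of CD48 was well above background on all 6 K422 arrays and the siFOXP1 signal on 3 of 6, and the dimmer probe 2 was well above background on 0 of 6 arrays in the siFOXP1 channel and 1 of 6 in siCtrl, with ratios from -2.53 to 1.32. Under normexp background correction with an offset of 50 the ratio of CD48 in K422 shrank to -0.29 with loess (adjusted p = 0.00557), below the fold limit, and to -0.26 with median centring (adjusted p = 0.309), where it failed the test as well. The siCtrl signals of CD48 there were only 4.30 to 6.32 on the log2 scale. An offset of 50 added to both channels shrinks ratios of such dim signals in any case, so these settings cannot decide on the fold. Among T cell markers, whose part in the result was not tested, LCK was also lower in K422 (-0.68, adjusted p = 1.33e-07), and none of the other 7 was called there. Of 6 monocyte and macrophage markers, likewise not tested as a source, CSF1R (-0.99, adjusted p = 0.000132) and LYZ, which was at background, were lower in K422, while the summed siCtrl level of these markers ranged from -1.29 to -0.35 there and from -1.52 to -1.10 in DB.

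In the 3 lines with high CD48 levels its response was small. The mean was -0.28 in OCI-Ly3 (SE 0.09, adjusted p = 0.0278, lower on 6 of 6 arrays, where 9.12% of genes were lower by adjusted p alone, and adjusted p = 0.0579 with the replicate block), -0.23 in DB (adjusted p = 0.108), while HBL-1 had a mean of 0.06 (adjusted p = 0.732). At that brightness both probes followed each other, with means on probe 2 of -0.29, -0.17 and -0.10 in the same order.

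PDCD1LG2 was higher in OCI-Ly3, the line in which its RNA was detected. The log2 ratios were 0.10, 0.82 and 0.37 with siFOXP1 #1 and 0.59, 1.20 and 0.38 with siFOXP1 #2. All 6 were above 0, and replicate 2 was the highest with either siRNA. The mean was 0.58 (SE 0.10, 1.49-fold, adjusted p = 0.000336), and the siFOXP1 signal was well above background on 6 of 6 arrays against 3 of 6 for siCtrl. Without replicate 2 of OCI-Ly3 the mean was 0.36 (adjusted p = 0.00659), under the fold limit, and normexp gave 0.12 (adjusted p = 0.0589), where the offset shrinks any ratio of signals this dim. The SE pooled all lines, and the SD of the 6 OCI-Ly3 arrays was 0.39. The call was lost when OCI-Ly3 was fitted alone (adjusted p = 0.0663), and with siFOXP1 #1 alone (0.43, under the fold limit). In the other lines 16 of 18 ratios were deposited as exactly 0, which Feature Extraction does where neither signal differs from background. CD274, the other PD-1 ligand, was not called in any line: its ratios in HBL-1 were -0.84, -0.54 and -0.64 with siFOXP1 #1 and -0.63, -0.12 and -0.25 with siFOXP1 #2, all below 0 (mean -0.50, SE 0.20, adjusted p = 0.0677), while in OCI-Ly3 they ran from -0.74 to 0.41.

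SLAMF1, a self-binding receptor of activated lymphocytes, was lower in DB. The log2 ratios were -0.65, -1.11 and -1.46 with siFOXP1 #1 and -0.92, -0.55 and -0.02 with siFOXP1 #2. All 6 were below 0, the last barely so. The mean was -0.79 (SE 0.19, a ratio of 0.58, adjusted p = 0.0103, where 5.96% of genes were lower by adjusted p alone), with the siFOXP1 signal well above background on 4 of 6 arrays and siCtrl on 5 of 6. Probe 2 of SLAMF1, which starts 263 bases away, gave -1.42 in DB (SE 0.19, adjusted p = 0.000113 over all probes, 2.17% of them called), with 1 of 6 arrays well above background in each channel. That was a different array for each channel, so no array had both signals of probe 2 well above background. The call of SLAMF1 was lost without replicate 2 of DB (-0.76, adjusted p = 0.0698), when DB was fitted alone (adjusted p = 0.126) and under normexp (-0.17). The normexp offset shrinks any ratio of signals this dim. SLAMF1 was also below 0 on 6 of 6 arrays in K422 (mean -0.40, adjusted p = 0.158) and above 0 on 6 of 6 in HBL-1 (mean 0.33, adjusted p = 0.223), neither of which passed.

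**Figure D2:**
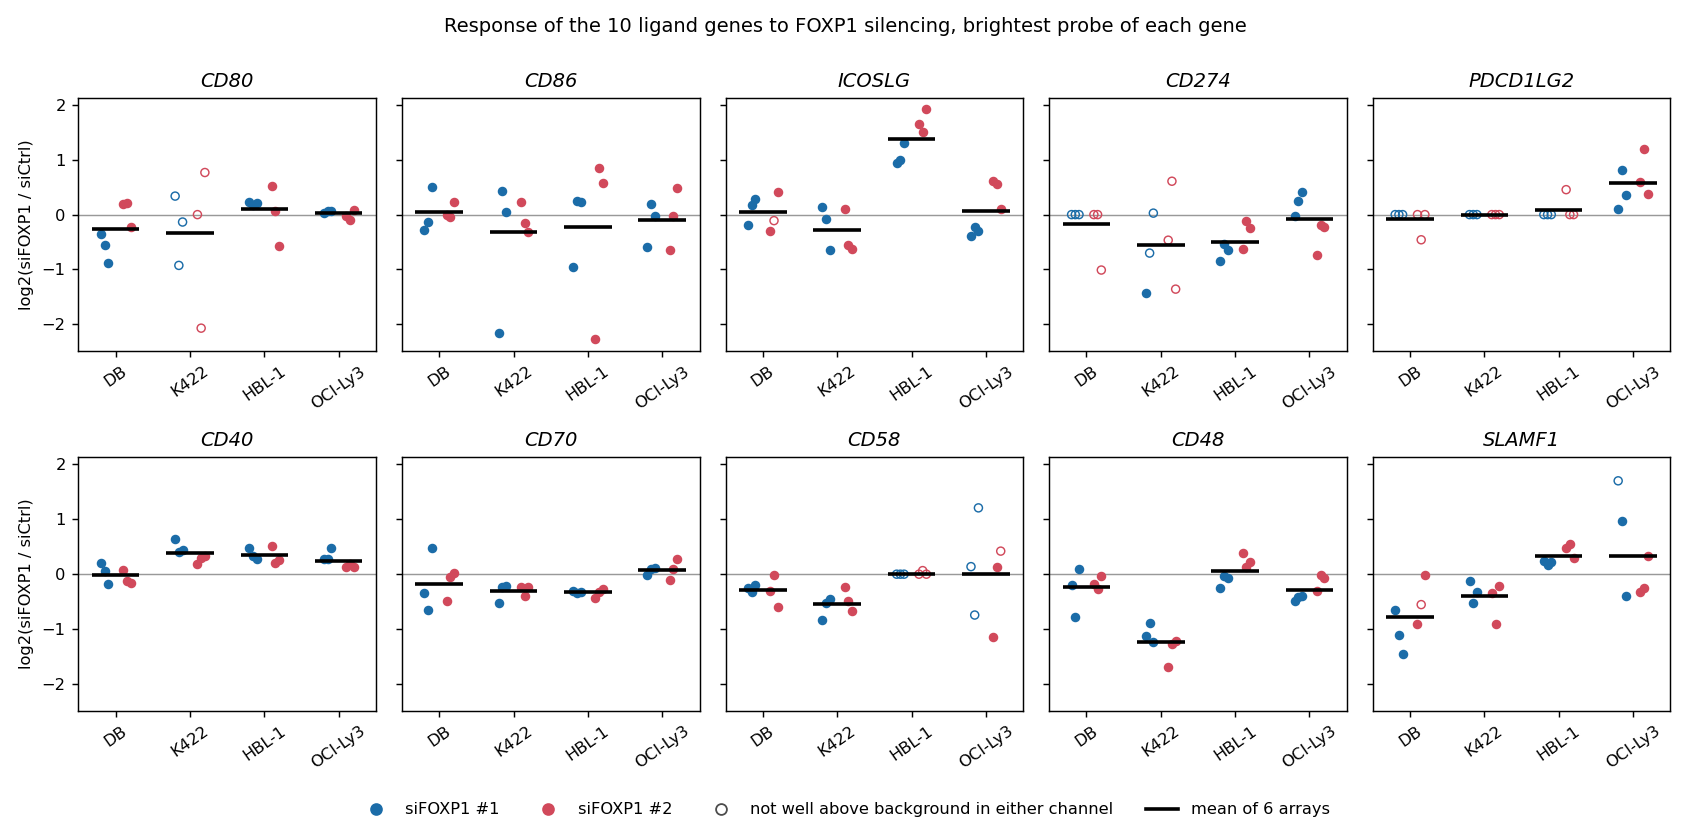
Log2 ratio of FOXP1-silenced over siCtrl signal (vertical axis) for the brightest probe of each ligand gene in the 4 lines (horizontal axis). Each point is 1 array, blue for siFOXP1 #1 and red for siFOXP1 #2, open where neither channel was well above background, and the bar is the mean of 6 arrays. ICOSLG in HBL-1 (mean 1.39) and CD48 in K422 (mean -1.24) stand clear of the other values of their genes, and PDCD1LG2 leaves 0 only in OCI-Ly3 apart from 1 array each in DB and HBL-1.

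Changes smaller than the fold limit but with an adjusted p under 0.05 brought the total to 10 of 40 values, or 8 with the replicate number as a block. Of 10 members, 1 was higher and 2 were lower in K422 (9.81% and 9.59% of all genes). The counts were 2 and 1 in HBL-1 (16.2% and 15.0%) and 2 and 1 in OCI-Ly3 (9.65% and 9.12%). In DB 1 was lower (5.96%). The counts in HBL-1 were thus close to the shares over all genes. CD40 was the most regular of the changes under the fold limit. It was higher on 6 of 6 arrays of K422 (0.18 to 0.63, mean 0.38, SE 0.05, adjusted p = 5.73e-05). The same held for all 6 arrays of HBL-1 (0.21 to 0.52, mean 0.34, adjusted p = 5.1e-05), and OCI-Ly3 gave 0.12 to 0.47 (mean 0.25, adjusted p = 0.00251). In DB it ran from -0.18 to 0.21 (mean -0.02, adjusted p = 0.962), and the difference between K422 and DB had an adjusted p of 0.00369 at a size of 0.40. The CD40 probe was printed in 10 spots on each array, so its ratio averages more spots than that of any other member. By adjusted p alone, 9.81% of K422 genes, 16.2% of HBL-1 genes and 9.65% of OCI-Ly3 genes were higher.

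CD70, the ligand of CD27, was lower on 6 of 6 arrays in K422 (-0.53 to -0.22, mean -0.31, SE 0.10, adjusted p = 0.0394) and in HBL-1 (-0.43 to -0.27, mean -0.33, adjusted p = 0.0159). With the replicate number or the slide as a block the adjusted p in K422 was 0.0773 or 0.111, which did not pass. By adjusted p alone, 9.59% of genes were lower in K422 and 15.0% were in HBL-1. In DB its arrays spread from -0.66 to 0.47 and in OCI-Ly3 from -0.11 to 0.28, on either side of 0. Both channels of CD70 were well above background on all 24 arrays.

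CD58 was lower on 6 of 6 arrays in both lines in which it was measured throughout. Its ratios were -0.84, -0.52, -0.46, -0.24, -0.48 and -0.67 in K422, with a mean of -0.54 (SE 0.19, adjusted p = 0.0562), past the fold limit but not the test. In DB they ran from -0.59 to -0.01, with a mean of -0.28 (adjusted p = 0.422). The pooled spread of CD58 included OCI-Ly3, where signals near background gave ratios from -1.15 to 1.21, and K422 fitted alone gave an adjusted p of 0.0218 for the same mean.

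On its brightest probe CD80 was not called in any line, with means from -0.34 in K422, where it was at background, to 0.11 in HBL-1. In OCI-Ly3, where it was brightest, its arrays ran only from -0.10 to 0.08. CD80 probe 2 gave a mean of 0.57 in HBL-1 (-0.15 to 1.11, adjusted p = 0.000361 over all probes), higher on 5 of 6 arrays, with the siCtrl signal well above background on 0 of 6 and the siFOXP1 signal on 4 of 6. CD86 was not called either. On its probe 1 the replicate 1 arrays stood apart with both siRNAs, at -0.96 and -2.28 in HBL-1 and -0.60 and -0.64 in OCI-Ly3, while in K422 siFOXP1 #1 gave -2.15 and siFOXP1 #2 gave 0.23. Probe 2, given above, showed no such gap in OCI-Ly3, where its ratios were 0.25, 0.23, 0.30, 0.48, 0.59 and 0.65 (mean 0.41, SE 0.10, adjusted p = 0.00658 over all probes, 4.62% of them called), higher on 6 of 6 arrays and under the fold limit.

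**Figure D3:**
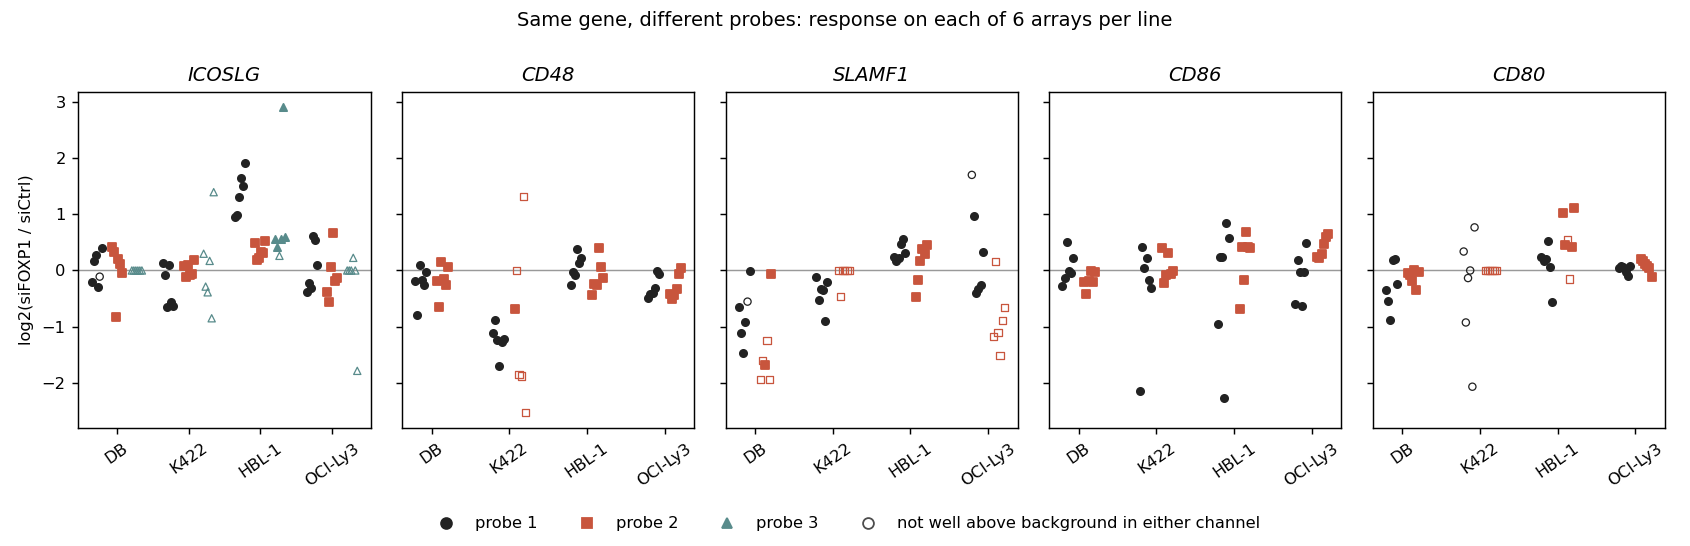
Log2 ratio (vertical axis) by probe for the 5 ligand genes with more than 1 probe, on the 6 arrays of each line (horizontal axis), open where neither channel was well above background. ICOSLG probes 1 and 2 are both above 0 in HBL-1 but 1.04 apart on average, CD48 probes 1 and 2 run together in DB, HBL-1 and OCI-Ly3 and scatter in K422, and the lowest points of CD86 probe 1, at -2.15 in K422 and -2.28 in HBL-1, have no counterpart on probe 2.

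The siRNAs were compared within each line for each member. None of the 40 differences between siFOXP1 #2 and siFOXP1 #1 was called in limma (5 had an unadjusted p under 0.05, and the smallest adjusted p was 0.396 for ICOSLG in OCI-Ly3), while DB had 0.302% of all genes called, OCI-Ly3 0.192%, HBL-1 0.173% and K422 0.159%. With 3 arrays per siRNA such a difference needs to be large to pass: that of SLAMF1 in OCI-Ly3, where siFOXP1 #1 gave 1.70, 0.96 and -0.39 and siFOXP1 #2 gave -0.33, -0.25 and 0.33, was -0.84 with an SE of 0.38. By siRNA, the means of the called members were 1.08 and 1.69 for ICOSLG in HBL-1, -1.08 and -1.40 for CD48 in K422, 0.43 and 0.72 for PDCD1LG2 in OCI-Ly3, and -1.08 and -0.50 for SLAMF1 in DB. SLAMF1 was thus the only called member with the larger mean change under siFOXP1 #1, the siRNA that lowered FOXP1 less.

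The third comparison asked whether the response differed between ABC-DLBCL and GCB-DLBCL. In the fit, 3 of 10 members had a called difference, against 2.26% of all genes, and each was higher in ABC-DLBCL, where 1.40% of all genes were. The differences were 0.93 (SE 0.19, adjusted p = 0.0045) for SLAMF1, 0.84 (SE 0.12, adjusted p = 0.000173) for ICOSLG and 0.62 (SE 0.09, adjusted p = 0.000178) for CD48. These SEs and p-values rest on the spread of arrays within a line and siRNA. They cover these 4 lines and not the subtypes at large. PDCD1LG2, measured in OCI-Ly3 alone, was under the fold limit. With probe 2 in place of probe 1 the difference of ICOSLG was 0.10 (adjusted p = 0.718) and not called. The other 6 members did not pass, from -0.03 for CD86 (SE 0.35) to 0.41 for CD58 (SE 0.19).

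For ICOSLG and CD48 a single line made the difference. Between HBL-1 and K422, scanned together, ICOSLG differed by 1.67 (SE 0.16, adjusted p = 3.61e-06) and CD48 by 1.30 (SE 0.12, adjusted p = 1.99e-06), 2 of 10 members where 4.34% of genes were called. Between OCI-Ly3 and DB, the other scan, the same genes differed by 0.02 (SE 0.16) and -0.06 (SE 0.12). Within ABC-DLBCL, ICOSLG differed between HBL-1 and OCI-Ly3 by 1.33 (SE 0.16, adjusted p = 5.39e-05), the only member of 10 called there (5.00% of all genes), and within GCB-DLBCL, CD48 differed between K422 and DB by -1.01 (SE 0.12, adjusted p = 9.67e-05), likewise alone (2.07%).

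The means of SLAMF1 were below 0 in both GCB-DLBCL lines (-0.79 in DB and -0.40 in K422) and above 0 in both ABC-DLBCL lines (0.33 in HBL-1 and 0.34 in OCI-Ly3). In OCI-Ly3, however, 3 of 6 arrays were above 0 and 3 below, with a median of 0.04. The means of CD80 and CD58 had the same signs without a called difference. However, CD58 was at or near background in HBL-1 (0.01) and OCI-Ly3 (0.002), so no response of it was measured there. CD80 was at background in K422. Within scans the difference of SLAMF1 was 1.12 (SE 0.27, adjusted p = 0.0271) between OCI-Ly3 and DB and 0.73 (SE 0.27, adjusted p = 0.0977) between HBL-1 and K422. On probe 2 OCI-Ly3 was at -0.87, not well above background in either channel on any array, so the positive mean in OCI-Ly3 was not seen on both probes. Between OCI-Ly3 and DB, 1.43% of all genes were called. PDCD1LG2 passed there beside SLAMF1, but in DB it was not well above background on any array and 5 of 6 ratios were exactly 0, so no response in DB was measured with which OCI-Ly3 could be compared. With only siFOXP1 #1 arrays none of the 3 subtype differences was called. With only siFOXP1 #2 arrays that of SLAMF1 was not called either (0.67, adjusted p = 0.0916 in limma).

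**Figure D4:**
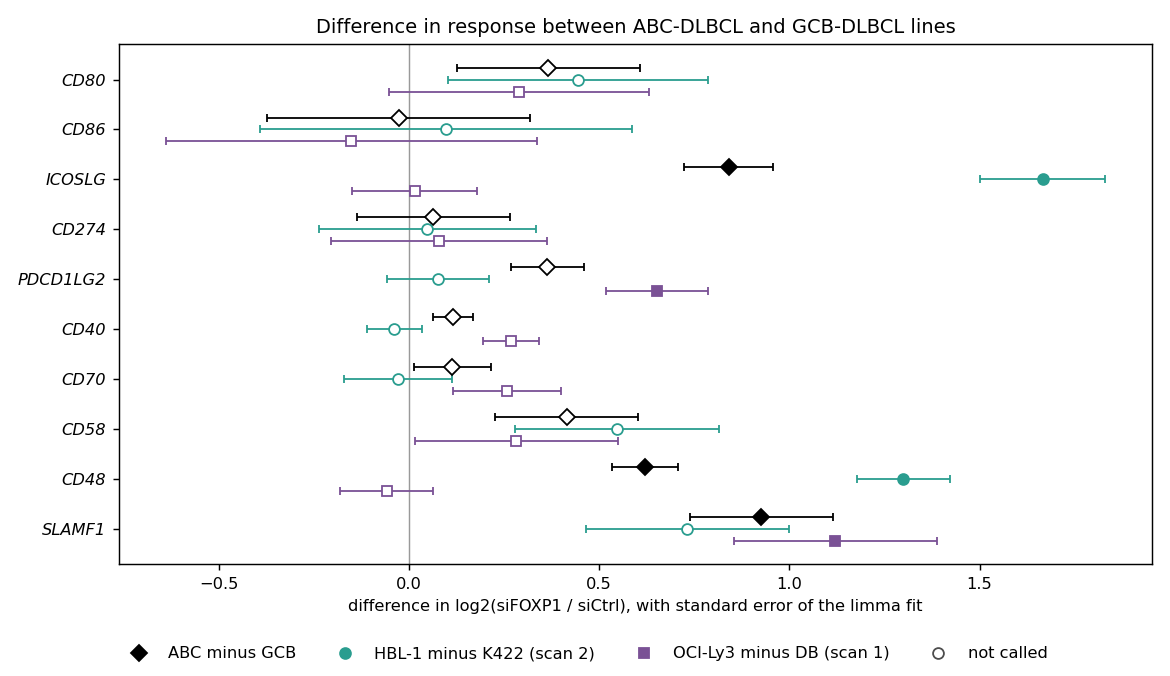
Difference in log2 ratio between lines (horizontal axis, with standard errors of the limma fit) for each ligand gene: ABC-DLBCL minus GCB-DLBCL over all lines, HBL-1 minus K422 within scan 2, and OCI-Ly3 minus DB within scan 1. Filled markers passed an adjusted p under 0.05 and a size of 0.5. ICOSLG and CD48 are far from 0 only in scan 2 (1.67 and 1.30), and SLAMF1 is positive in both scans (0.73 and 1.12).

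Around these ligands, 44 further genes of the same families and their T cell receptors were examined. In HBL-1, where 9.90% of all genes were called, 7 were higher and 1 was lower. K422 (4.44%) had 3 higher and 2 lower, OCI-Ly3 (4.42%) 1 higher and 3 lower, and DB (2.16%) 1 higher and 0 lower. The order of the lines by called genes was thus close to that over all genes. In HBL-1, K422 and OCI-Ly3, however, the called share of the 44 was above that over all genes, and in DB it was close to it. Their median log2 ratio was 0.13 in HBL-1, 0.03 in both K422 and OCI-Ly3, and 0.00 in DB. Several called values were at background in both channels on most arrays, among them VTCN1 and CD244 in OCI-Ly3 and ICOS in HBL-1. The values below are for genes well above background in at least 1 channel on all 6 arrays of the line, except SLAMF6 in HBL-1, which is given as a bound.

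Of 7 other SLAM family receptors, relatives of SLAMF1 and CD48, 2 were called higher in HBL-1: LY9, a self-binding receptor, by 1.46 (adjusted p = 5.53e-05), and SLAMF6, also self-binding, which was not well above background in siCtrl cells and at least 1.26-fold higher on silencing, on 4 of 6 arrays (adjusted p = 4.18e-07). SLAMF6 was also higher in K422 (0.56, adjusted p = 0.0293). CD27, the receptor for CD70 that memory B cells share with T cells, was higher in HBL-1 by 1.33 (adjusted p = 1.58e-07), in the same arrays in which CD70 was lower by 0.33.

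Of 5 other TNF family ligands and receptors, TNFSF4 (OX40 ligand) was higher in HBL-1 (0.63, adjusted p = 0.00612), and of 8 adhesion and other ligands, LGALS9 (galectin-9) was higher in K422 (0.56, adjusted p = 0.0222) and HBL-1 (0.54, adjusted p = 0.0178). None of 7 other B7 and butyrophilin ligands was called in DB, K422 or HBL-1. Of 17 T cell receptors, PDCD1, which encodes PD-1, was lower in K422 (-0.52, adjusted p = 2.2e-05), TIGIT, an inhibitory receptor, was lower in K422 (-1.08, adjusted p = 3.44e-06) and OCI-Ly3 (-0.55, adjusted p = 0.00172), and ITGAL, the alpha chain of the integrin LFA-1, was higher in HBL-1 (0.53, adjusted p = 0.000185). CD28, CTLA4 and CD40LG were not well above background in any siCtrl sample. Part of the list of 17 was nevertheless detected. DB and OCI-Ly3 each had 6 of these genes with a siCtrl signal well above background on all 6 arrays, HBL-1 had 7 and K422 had 5. The T cell markers CD3D, CD3E and CD3G also passed that limit on all 6 arrays of K422. Of the T cell markers in HBL-1, 1 of 8 was called, LCK (1.15, adjusted p = 4.78e-11).

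The pattern of each called member over the 24 arrays was set beside those of 13880 or 13881 other genes well above background in at least 1 channel on all arrays. The nearest were SUSD3 (Pearson r = 0.916), IL28RA (0.897) and KIAA1737 (0.891) for ICOSLG, and AK027541 (0.894), CREG1 (0.880) and TESC (0.878) for CD48. For PDCD1LG2 they were FCGBP (0.794), ARL17 (0.785) and SLC38A9 (0.775), and for SLAMF1, HLA-DPA1 (0.727), ACTR8 (0.724) and TMEM53 (0.723). These arrays fall into 4 lines, so such likeness is mostly that of the line means: CREG1 had -0.69 in K422 and values between -0.15 and -0.10 in the other lines, as CD48 did on a larger scale.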

How the data were processed

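RNA of FOXP1-silenced (Cy3) and siCtrl cells (Cy5) was hybridised by the authors to 24 Agilent arrays (2 per replicate and line). The authors deposited Feature Extraction output (version 10.5.1.1 for scan 1 with DB and OCI-Ly3, 10.7.3.1 for scan 2 with K422 and HBL-1) that gives each channel's processed intensity and, as LogRatio, log10 of Cy5 relative to Cy3, background-subtracted and dye-normalised within the array. The deposited matrix holds log2 ratios. Since the dyes were never swapped, dye and silencing cannot be told apart within a line. LogRatio was converted to log2 and reversed in sign. Of 45015 spots, 1639 control spots and 113 to 469 outlier spots per array were left out, and the brightest probe stood for a gene. limma 3.58.1 in R 4.3.3 fitted all arrays with a mean per line and siRNA, with Benjamini-Hochberg adjustment over all genes. Scripts were tested on simulated data. Levels used the Cy5 intensity relative to the 75th percentile.

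Named were all members, FOXP1, pathway genes called and above background, and the 3 genes nearest to each called member. The members and lists were chosen with earlier results of these data known. The replicate numbers are taken to mark the 3 independent experiments of the series' design text, and same-numbered arrays deviated together at a correlation from 0.0468 to 0.284 over genes. Over the 17169 brighter genes the correlation was higher, from 0.0902 to 0.535. Whether same-numbered arrays shared 1 siCtrl RNA is not given in the sources used here. Their siCtrl deviations correlated at 0.341 to 0.882, and those of differently numbered arrays of a line at -0.846 to 0.536. In DB these ranges met, since the lowest same-numbered value there was 0.531.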

Additional observations from a re-analysis of the deposited data

Results flagged for a closer look

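On CD86 probe 1, the K422 array of siFOXP1 #1 replicate 1 had a log2 ratio of -2.15, far from the other 5 K422 arrays, which lay between -0.31 and 0.42. It was the only such value among 29 groups of 6 arrays with measured members, where chance alone gives about 1 in 20, or 1.45.

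The response differed between lines in 9 tested differences of members, all past an adjusted p of 0.05 in limma and the fold limit. Between subtypes these were CD48 (0.62, SE 0.09, adjusted p = 0.000178), ICOSLG (0.84, SE 0.12, adjusted p = 0.000173) and SLAMF1 (0.93, SE 0.19, adjusted p = 0.0045). Within scan 2, HBL-1 exceeded K422 for CD48 by 1.30 and for ICOSLG by 1.67. Within scan 1, OCI-Ly3 exceeded DB for SLAMF1 by 1.12. The value for PDCD1LG2 was 0.65, against DB ratios of which 5 of 6 were exactly 0 and which had no array well above background, so it compares no measured response. Between lines of the same subtype, which were scanned apart, ICOSLG differed between HBL-1 and OCI-Ly3 by 1.33 and CD48 between K422 and DB by -1.01, and scan and line cannot be told apart there. The 9 differences overlap, since the K422 values of CD48 and the HBL-1 values of ICOSLG each enter several. Of all genes, 2.26% were called between subtypes, 4.34% between HBL-1 and K422 and 1.43% between OCI-Ly3 and DB. The shares were 5.00% between HBL-1 and OCI-Ly3 and 2.07% between K422 and DB.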

How the results depend on the processing

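The count of called members was 1 in each line, 3 between subtypes and 9 for levels. With the replicate block these counts were again 1, 1, 1, 1 and 3, and the block changed no call of a member, while by adjusted p alone CD70 in K422 (0.0773) and CD48 in OCI-Ly3 (0.0579) no longer passed. The count in DB was 0 under normexp with loess, normexp with median centring, DB fitted alone, the methods' t-test and either siRNA alone, and 2 in the deposited matrix, which added PDCD1LG2. The count in K422 was 0 under normexp with loess, 1 under normexp with median centring, where CD70 (-0.57) was called in place of CD48 (-0.26), 3 in the deposited matrix and under both filters on dim genes (CD58 and CD274 added), and 2 with the line fitted alone and the t-test (CD58 added). In HBL-1 it was 2 under normexp with median centring (CD70 added), the deposited matrix, both filters, the line alone and the t-test (CD274 added each time), and 0 with the second-brightest probe of CD86 and ICOSLG, an alternative chosen after seeing the data. In OCI-Ly3 it was 0 under both normexp settings, both filters, which removed PDCD1LG2 before the test, the line alone, the t-test and siFOXP1 #1 alone. With the second-brightest probes ICOSLG was also lost between subtypes in response (0.10) and level (0.29). Between subtypes the count was 1 under both normexp settings (ICOSLG), the mean over probes and the t-test (SLAMF1 in each), and 0 with siFOXP1 #1 alone. In the deposited matrix it was 4, with PDCD1LG2 added (0.63). SLAMF1 was also lost between subtypes with siFOXP1 #2 alone (0.67). For levels it was 5 under normexp. Normexp with median centring called more genes lower than higher, 400 against 79 in K422 and 1871 against 157 in HBL-1. The main fit had 632 against 706 and 1258 against 1727, so the gains of CD70 came with a shift of all genes. No member reversed a call in any alternative run, and a cause was not tested.

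Leaving out a replicate gave 0 to 1 called members in DB, 1 to 2 in K422, 1 to 2 in HBL-1, 0 to 2 in OCI-Ly3, 3 between subtypes and 9 for levels. SLAMF1 was lost in DB without DB replicate 2 (adjusted p = 0.0698) and PDCD1LG2 in OCI-Ly3 without OCI-Ly3 replicate 2 (0.36), while SLAMF1 was gained in OCI-Ly3 without its replicate 3 (0.52). CD274 was gained in K422 without K422 replicate 2 (-0.81) and in HBL-1 without K422 replicate 2 or 3, and CD58 in K422 without OCI-Ly3 replicate 1, 2 or 3. The deposited matrix moved the median of all genes in HBL-1 by -0.11. Signal over background limits PDCD1LG2 outside OCI-Ly3, CD58 in the ABC-DLBCL lines, CD274 in the GCB-DLBCL lines and CD80 in K422, where ratios near 0 show only that no change was measurable.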
